A study of Mus musculus with 20 samples.

Results

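Benzo(a)pyrene (B[a]P) was compared with its vehicle in the testis of Xpc-/- mice. The 5 Xpc-/- B[a]P mice and the 5 Xpc-/- control mice make up 10 of the 20 arrays of the series, and they were chosen by their sample titles alone. The Xpc-/- B[a]P mice were gavaged once with B[a]P at 13 mg/kg body weight, the Xpc-/- control mice received sunflower oil, and whole testis was taken at day 4. The other 10 arrays hold 5 Wt B[a]P and 5 Wt control mice of the same dose and day. All mice were males on a C57BL/6 background, and the sources used here give no age. The mice of both Xpc-/- groups lack Xpc in every cell. Each array carried the RNA of 1 mouse in Cy5, set against a Cy3 pool of 3 unexposed Wt mice.

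The polycyclic aromatic hydrocarbon B[a]P activates the aryl hydrocarbon receptor, which induces cytochrome P450 enzymes such as Cyp1a1 and Cyp1b1, and these convert B[a]P to a diol epoxide that forms bulky DNA adducts. Xpc recognises such lesions in global genome nucleotide excision repair, while transcription coupled repair does not need it. In the testis, germ cells divide by mitosis and meiosis beside Sertoli, Leydig and peritubular myoid cells. In whole testis, fewer cells of a type and less RNA per cell cannot be told apart.

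All values are log2 signals of a probe, and all changes are log2 differences, B[a]P minus control. Changes were tested with limma in 1 fit of all 20 arrays, and a probe was called at an adjusted p (Benjamini-Hochberg over all 20868 probes) below 0.05. The sources used here do not give the litter or cage of the mice, so their part in the spread cannot be told. The p-values measure the spread between mice and arrays within the groups. It was estimated over all 4 groups together, so it includes that of the Wt mice. The depth of an array has no count, and precision is limited by the number of arrays.

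The arrays of Xpc-/- control 1 and 2 differed from the rest. They scored 38.4 and 40.5 on component 1 of a principal component analysis (24.5% of the variance), and the other 18 arrays scored between -18.7 and 8.10. Control 1 and 2 correlated with controls 3 to 5 at 0.964 to 0.974, whereas controls 3 to 5 correlated with each other at 0.992 to 0.994. The 5 Xpc-/- B[a]P arrays correlated at 0.978 to 0.989. The counts of calls and the leading genes are therefore also given without control 1 and 2, as 5 mice against 3. Markers of spermatocytes and spermatids were mostly bright on the arrays. Of 28 round spermatid genes on the array 25 had a probe among the brightest 25% of probes, of 28 elongating spermatid genes 24, and of 27 meiotic spermatocyte genes 21. Such a probe was found for 13 of 26 Sertoli, 7 of 13 Leydig, 4 of 11 myoid and 4 of 17 spermatogonial genes. It was found for 3 of 15 macrophage and 1 of 13 endothelial genes, and 5 of 8 epididymis genes lay among the dimmest 25%.

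**Figure D1:**
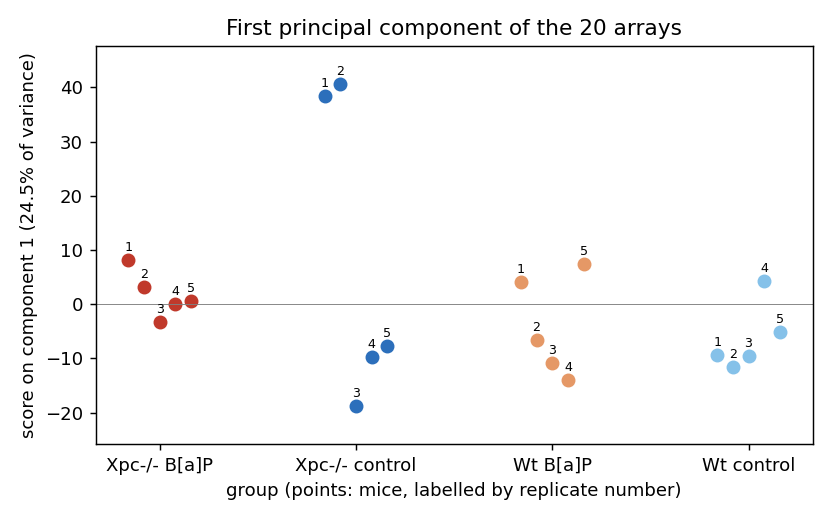
Score of each array on principal component 1 (24.5% of the variance), by group, with the replicate number above each point. Xpc-/- control 1 and 2 sit at 38.4 and 40.5, and the other 18 arrays lie between -18.7 and 8.10.

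Xpc, the deleted gene, was read by a dim probe. Its signal was 6.30, 6.62, 6.42, 6.84 and 6.63 in Xpc-/- B[a]P mice, and 6.26, 6.69, 6.74, 6.99 and 6.91 in Xpc-/- control mice. In Wt mice the signal lay between 7.13 and 7.62 after B[a]P and between 7.10 and 7.64 in controls. All 10 Xpc-/- arrays were thus below all 10 Wt arrays, as labelled, and the B[a]P change within Xpc-/- mice was -0.15 (adjusted p = 0.647).

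Few probes passed the test of B[a]P in Xpc-/- testis, and their changes were small. Of the 20868 probes 135 were called (0.647%), of which 122 rose (0.585%) and 13 fell (0.0623%). Rising probes had a median ratio of B[a]P to control of 1.43, and falling probes one of 0.701. Over 1.5-fold changes were found for 24 rising and 2 falling probes, and only Elf2 exceeded 2-fold. The called probes stand for 119 named genes that rose and 10 that fell. At an unadjusted p below 0.05 there were 2974 probes, 1628 higher and 1346 lower. Probes that were not called are therefore not shown to be unchanged. The values of the groups did not overlap for 108 of the 135 called probes, against 2.29% of all probes. Of these 108, 97 were higher after B[a]P and 11 lower. Over all probes, called or not, 1.58% were higher without overlap and 0.709% lower. The calls and the overlap rest on the same values, so the overlap adds no separate support. Of the called probes 103 lay among the brightest 25% of probes and 1, that of Ifi207, among the dimmest 25%.

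The number of calls changed with single arrays. Without Xpc-/- control 5 only Elf2 and Phospho2 were called, and without Xpc-/- B[a]P 4 only 20 probes were. Without Xpc-/- control 3 there were 321 calls, and without Xpc-/- B[a]P 5 there were 221. Without Xpc-/- control 1 the number was 65, without control 2 it was 163, without control 4 it was 68, and without Xpc-/- B[a]P 1, 2 or 3 it was 82, 66 and 64. When the 10 Xpc-/- arrays were fitted alone, with their own spread, no probe passed (smallest adjusted p = 0.112, with 2027 probes at an unadjusted p below 0.05). All 135 probes kept the sign of their change in each of these fits. Of the 135, 16 were called in at least 9 of the 10 fits that left out an Xpc-/- array. Beside Elf2 and Phospho2 these were Hnrnpf, Ptchd3, Pde10a, Psma1, Adam1b, Pcbp2, Tfg, Gsto1, Macf1, Zc3h15, Tada1, Mlf2, Glud1 and, as the only fall, Slc25a41.

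**Figure D2:**
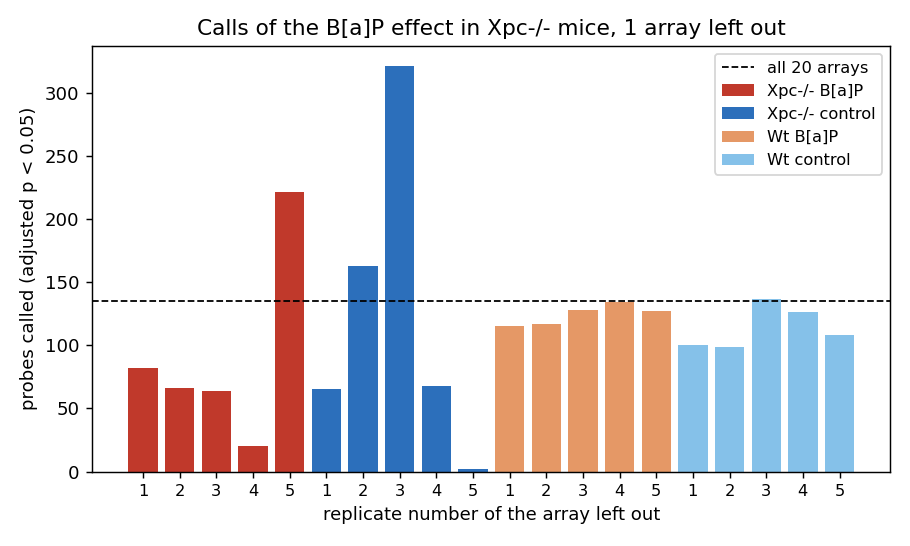
Number of probes called between Xpc-/- B[a]P and Xpc-/- control mice when 1 of the 20 arrays was left out, with a dashed line at the 135 calls of all arrays. Leaving out Xpc-/- control 5 left 2 calls and leaving out Xpc-/- control 3 gave 321, whereas leaving out a Wt array gave 99 to 137.

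Without Xpc-/- control 1 and 2 the number of calls was larger and the balance of directions differed. In this fit 545 probes were called (2.61%), of which 338 rose (1.62%) and 207 fell (0.992%). Both fits called 88 probes, which are 65.2% of the 135 and 16.1% of the 545. The other 47 of the 135 did not pass without control 1 and 2, and all 135 kept their sign. Rises thus made up 90.4% of the calls with all arrays and 62.0% without control 1 and 2. With the Xpc-/- arrays alone and without control 1 and 2, a fit chosen after the data had been seen, 77 probes were called, 48 higher and 29 lower.

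**Figure D3:**
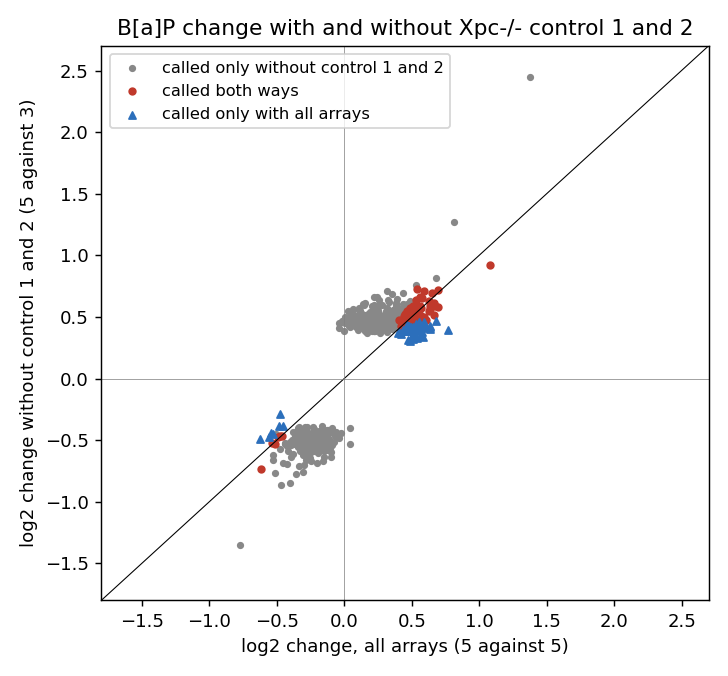
Log2 change after B[a]P with all Xpc-/- arrays (5 against 5, horizontal axis) and without Xpc-/- control 1 and 2 (5 against 3, vertical axis) for probes called in either fit, with the line of equal change. The 88 probes called both ways lie near the line, and most of the 457 probes called only without control 1 and 2 lie further from 0 on the vertical axis.

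Elf2, an ETS family transcription factor, had the largest called rise. Its signal was 11.41, 11.21, 11.07, 11.55 and 11.24 in Xpc-/- B[a]P mice, against 9.74, 10.23, 10.95, 10.01 and 10.16 in Xpc-/- control mice. The groups did not overlap, with control 3 closest to the exposed mice. The change was 1.08 (standard error 0.15, adjusted p = 0.00186) with all arrays and 0.92 (adjusted p = 0.00387) without control 1 and 2. Phospho2, a phosphatase, had 11.63, 11.68, 11.70, 12.06 and 11.82 in Xpc-/- B[a]P mice, against 11.05, 11.19, 11.22, 11.17 and 10.77 in Xpc-/- control mice. Each exposed mouse lay above each control mouse, and the change was 0.69 (standard error 0.11, adjusted p = 0.00447), or 0.72 without control 1 and 2. Elf2 and Phospho2 were the genes called whichever Xpc-/- array was left out.

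The start regions of Elf2 and Phospho2, and of the called genes of the G2-M and mitosis list described further on, are shown because these genes moved in the same direction. The genes and the motifs were chosen after the values had been seen. The sequences are RefSeq promoter windows of GRCm38.p6, 250 bases before to 50 after the annotated start, and 7 of the 8 genes looked for matched, all but Kif20a. Where a gene has several windows the first one in the table is given. Capitals mark 5 motifs, searched on both strands: TTTGAA and its variant TTTAAA (the cell cycle homology region), the box CCAAT, the E2F site in the form TTTCGCG, and GCGTG (the core of the xenobiotic response element bound by the aryl hydrocarbon receptor). No 2 matches overlapped.
Elf2 (chr3:51340595-51340894, minus strand): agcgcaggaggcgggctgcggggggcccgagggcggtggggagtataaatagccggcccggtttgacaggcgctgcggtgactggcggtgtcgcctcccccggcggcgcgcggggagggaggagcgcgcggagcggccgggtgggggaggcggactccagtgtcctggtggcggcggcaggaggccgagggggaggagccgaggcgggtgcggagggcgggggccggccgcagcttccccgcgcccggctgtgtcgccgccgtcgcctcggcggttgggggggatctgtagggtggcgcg
Phospho2 (chr2:69789487-69789786, plus strand): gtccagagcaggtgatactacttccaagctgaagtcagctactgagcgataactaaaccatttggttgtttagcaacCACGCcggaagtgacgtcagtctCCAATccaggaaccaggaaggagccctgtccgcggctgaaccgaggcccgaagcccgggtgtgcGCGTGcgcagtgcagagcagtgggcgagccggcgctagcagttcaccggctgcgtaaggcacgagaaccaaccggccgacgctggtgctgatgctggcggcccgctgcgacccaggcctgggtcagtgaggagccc
Fzr1 (chr10:81378321-81378620, minus strand): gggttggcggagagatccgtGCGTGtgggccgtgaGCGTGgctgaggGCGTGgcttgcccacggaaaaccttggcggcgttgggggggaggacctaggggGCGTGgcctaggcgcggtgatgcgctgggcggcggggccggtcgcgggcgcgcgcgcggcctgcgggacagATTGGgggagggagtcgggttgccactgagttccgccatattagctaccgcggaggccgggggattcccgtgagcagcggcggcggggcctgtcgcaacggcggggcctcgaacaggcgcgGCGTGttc
Nuf2 (chr1:169531415-169531714, minus strand): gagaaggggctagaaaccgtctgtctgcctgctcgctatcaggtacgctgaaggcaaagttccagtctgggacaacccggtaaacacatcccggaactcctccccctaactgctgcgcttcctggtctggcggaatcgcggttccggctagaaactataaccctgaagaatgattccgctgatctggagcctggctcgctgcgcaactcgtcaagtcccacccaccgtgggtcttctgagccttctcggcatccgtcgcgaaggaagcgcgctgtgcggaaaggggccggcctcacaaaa
Prc1 (chr7:80294201-80294500, plus strand): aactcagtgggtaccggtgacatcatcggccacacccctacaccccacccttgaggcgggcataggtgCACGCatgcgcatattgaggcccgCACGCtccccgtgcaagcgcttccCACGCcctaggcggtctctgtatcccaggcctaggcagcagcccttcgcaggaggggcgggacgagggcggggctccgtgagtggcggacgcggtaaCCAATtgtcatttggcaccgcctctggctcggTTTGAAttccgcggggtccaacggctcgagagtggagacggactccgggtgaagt
Ect2 (chr3:27153829-27154128, minus strand): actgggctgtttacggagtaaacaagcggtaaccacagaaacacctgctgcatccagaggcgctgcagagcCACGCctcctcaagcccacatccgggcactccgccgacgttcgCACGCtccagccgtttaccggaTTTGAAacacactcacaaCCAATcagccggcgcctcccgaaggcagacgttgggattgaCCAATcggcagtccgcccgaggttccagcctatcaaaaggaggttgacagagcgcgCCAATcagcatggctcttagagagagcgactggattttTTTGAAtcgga
Cks2 (chr13:51644982-51645281, plus strand): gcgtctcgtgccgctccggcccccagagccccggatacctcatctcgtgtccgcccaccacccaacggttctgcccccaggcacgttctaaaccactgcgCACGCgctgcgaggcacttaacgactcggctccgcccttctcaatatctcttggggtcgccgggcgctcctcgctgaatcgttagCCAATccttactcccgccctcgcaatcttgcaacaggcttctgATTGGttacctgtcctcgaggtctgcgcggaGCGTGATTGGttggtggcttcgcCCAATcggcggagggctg

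The Elf2 and Nuf2 windows held none of the 5 motifs. TTTGAA occurred in the windows of Prc1 (1 match, at -5 from the start) and Ect2 (2 matches), and 17.9% of all 32851 windows hold it. CCAAT occurred in those of Cks2 (4 matches), Ect2 (3), Prc1, Fzr1 and Phospho2 (1 each), against 37.4% of all windows. GCGTG occurred in those of Fzr1 (5 matches), Prc1 (3), Ect2, Cks2 and Phospho2 (2 each), against 32.4% of all windows. TTTCGCG and TTTAAA had 0 matches in the 7 windows, and 0.849% and 13.2% of all windows hold them. A match is a description of the letters and not a binding site.

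Hnrnpf, Adam1b, Pde10a and Gsto1 also rose without overlap between the groups. Hnrnpf, an RNA-binding regulator of splicing, had 12.98, 12.87, 13.25, 13.08 and 12.95 in Xpc-/- B[a]P mice, against 12.49, 12.38, 12.40, 12.37 and 12.24 in Xpc-/- control mice. The groups did not overlap, and the change was 0.65 (standard error 0.11, adjusted p = 0.00574), or 0.69 without control 1 and 2. Adam1b, a membrane protein of the sperm surface, had 12.36, 12.03, 12.35, 12.33 and 12.27 in Xpc-/- B[a]P mice, against 11.69, 11.59, 11.81, 11.73 and 11.38 in Xpc-/- control mice. Its lowest exposed mouse was above its highest control mouse, with a change of 0.63 both with all arrays (standard error 0.10, adjusted p = 0.00574) and without control 1 and 2. Pde10a, a phosphodiesterase that degrades cyclic nucleotides, ranged between 9.08 and 9.52 in Xpc-/- B[a]P mice and between 8.50 and 8.90 in Xpc-/- control mice. It rose by 0.64 (adjusted p = 0.0124), or 0.56 without control 1 and 2. Gsto1, a glutathione transferase, ranged between 8.40 and 8.78 in Xpc-/- B[a]P mice and between 7.85 and 8.17 in Xpc-/- control mice. The change was 0.58 (standard error 0.11, adjusted p = 0.0155), or 0.65 without control 1 and 2.

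Some of the other large rises were less evenly spread over the mice. Rtn4, an endoplasmic reticulum shaping protein, had 8.59, 8.26, 8.36, 8.83 and 9.04 in Xpc-/- B[a]P mice, against 6.97, 7.60, 8.19, 8.21 and 8.28 in Xpc-/- control mice. Control 1 and 2 were the lowest mice, and the rise of 0.77 (adjusted p = 0.0488) became 0.39 (adjusted p = 0.147) without them. Dzip3, a ubiquitin ligase, rose by 0.68 (adjusted p = 0.0405), with 0.46 (adjusted p = 0.107) without control 1 and 2. Gnai3, an inhibitory G protein subunit, rose by 0.63 (adjusted p = 0.0195), with 0.42 (adjusted p = 0.0543) without them. The uncharacterised 4921524J17Rik, whose value in control 1 was 8.75 against 9.66 to 9.84 in the other controls, rose by 0.63 (adjusted p = 0.0488), with 0.40 (adjusted p = 0.0793) without them. Eci2, an enzyme of fatty acid oxidation, rose by 0.67 (adjusted p = 0.0293), Ptchd3 by 0.67 (adjusted p = 0.0155), 1700001E04Rik by 0.66 (adjusted p = 0.016) and the dynein light chain gene Dynll2 by 0.69 (adjusted p = 0.0242). These 4 genes were also called without control 1 and 2, with changes of 0.51 to 0.62. A second and brighter probe of Dynll2 (mean signal 14.1, against 9.35 for the called probe) changed by -0.04 (adjusted p = 0.926).

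**Figure D4:**
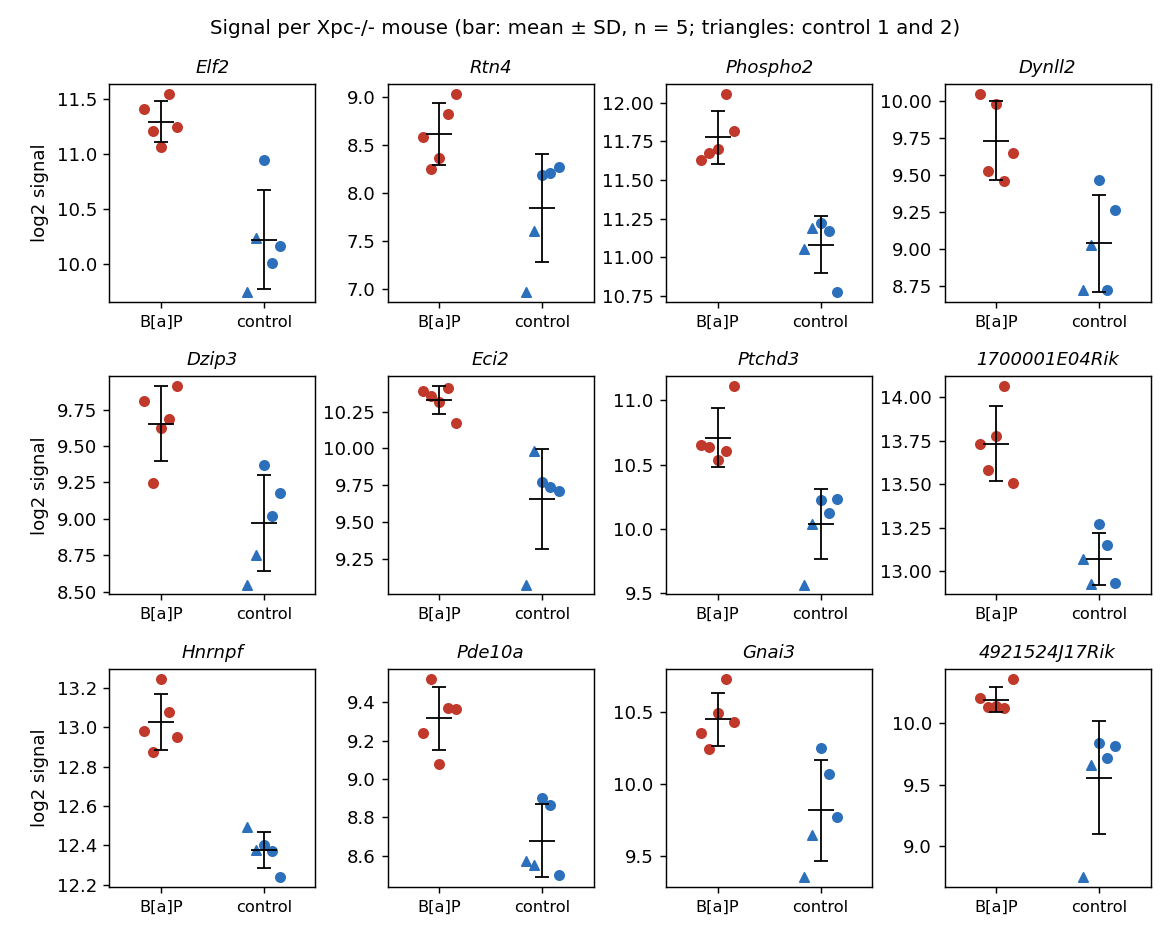
Log2 signal in each Xpc-/- mouse of the 12 genes with the largest called changes, all of them rises (a choice made after the values had been seen), B[a]P on the left and control on the right of each panel, with mean and SD (n = 5 each) and triangles for control 1 and 2. The mice of both groups overlap for Rtn4, Dynll2, Dzip3 and Gnai3 and do not overlap in the other panels.

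The falls were few and between -0.46 and -0.62. Slc25a41, a mitochondrial carrier, had 8.07, 8.58, 8.19, 8.20 and 8.41 in Xpc-/- B[a]P mice, against 8.76, 8.72, 8.96, 9.04 and 9.07 in Xpc-/- control mice. The groups did not overlap, and the change was -0.62 (standard error 0.11, adjusted p = 0.0153), or -0.73 without control 1 and 2. Asb17, a testis gene of the ankyrin repeat and SOCS box family, had 11.45, 11.64, 11.69, 11.52 and 11.52 in Xpc-/- B[a]P mice, against 12.25, 11.85, 12.05, 12.25 and 11.99 in Xpc-/- control mice. All exposed mice were lower than all control mice, with a change of -0.51 (adjusted p = 0.0293). Oit1 had 11.54, 11.38, 11.59, 11.51 and 11.46 in Xpc-/- B[a]P mice, against 12.18, 11.86, 11.77, 12.00 and 12.15 in Xpc-/- control mice, a change of -0.49 (adjusted p = 0.0203). Gins1, a subunit of the replicative helicase complex, had a mean of 9.54 ± 0.20 in Xpc-/- B[a]P mice and 10.08 ± 0.17 in Xpc-/- control mice (SD, n = 5 each), a change of -0.54 (adjusted p = 0.0302). Tonsl, which acts in the repair of replication forks, changed by -0.47 (adjusted p = 0.0405). Slc25a41, Asb17, Oit1, Gins1 and Tonsl were also called without control 1 and 2. Fam220a (-0.56), the cAMP phosphodiesterase gene Pde4a (-0.52), Plxdc1 (-0.48), the antisense transcript Hoxd3os1 (-0.48) and the telomere capping gene Ten1 (-0.46) were called with all arrays and missed the threshold without control 1 and 2 (adjusted p = 0.0509 to 0.137). Their changes were then -0.48 for Fam220a, -0.45 for Pde4a, -0.38 for Plxdc1, -0.29 for Hoxd3os1 and -0.39 for Ten1.

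Gene lists were described by counts, with 1 probe per gene. Over all 16966 genes 0.69% were called higher and 0.0589% lower, 47.4% had a change above 0, and the median change was -0.01. These shares were not matched for brightness, and 103 of the 135 called probes lay among the brightest 25% of probes. Lists differed in this, as 16 of 30 chromatin remodelling genes and 60 of 67 cytosolic ribosomal protein genes had such a probe. Of 31 lists, 14 had a member that rose and none had a member that fell. Without control 1 and 2 the shares over all genes were 1.8% higher and 1.16% lower, and 9 lists had a member that fell.

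The list of genes of G2-M and mitosis held the most rises. Of its 54 measured genes 6 rose (11.1%, against 0.69% of all genes), and the list median was 0.06. Some of these genes are among those the study chose on these samples, so the list is not independent of that choice. Nuf2, a kinetochore subunit, had 11.42, 11.34, 11.33, 11.34 and 11.36 in Xpc-/- B[a]P mice, against 10.64, 10.40, 11.19, 10.84 and 10.81 in Xpc-/- control mice. Its exposed mice were tightly grouped above all controls, and it rose by 0.58 (adjusted p = 0.016), or 0.41 (adjusted p = 0.0448) without control 1 and 2. Ect2, which acts in cytokinesis, had 10.07, 9.89, 9.94, 10.30 and 9.95 in Xpc-/- B[a]P mice, against 9.28, 9.43, 9.69, 9.72 and 9.36 in Xpc-/- control mice. It rose by 0.54 (adjusted p = 0.0299) without overlap, and missed the threshold without control 1 and 2 (0.44, adjusted p = 0.0553). Fzr1, which switches on the anaphase-promoting complex, had 12.12, 12.01, 12.14, 12.09 and 11.94 in Xpc-/- B[a]P mice, against 11.82, 11.54, 11.63, 11.61 and 11.32 in Xpc-/- control mice. It rose by 0.48 (adjusted p = 0.0299), or 0.54 (adjusted p = 0.0174) without control 1 and 2.

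The other called members of this list were named after their values had been seen. The central spindle protein gene Prc1 rose by 0.58 (adjusted p = 0.0405) and the mitotic kinesin gene Kif20a by 0.50 (adjusted p = 0.0302). Cks2, which binds cyclin-dependent kinases, rose by 0.44 (adjusted p = 0.0335). Without control 1 and 2, Kif20a and Cks2 passed and Prc1 did not (0.34, adjusted p = 0.144). That fit called 8 members higher, among them the anaphase-promoting complex subunit gene Cdc27 (0.65, adjusted p = 0.00495) and the topoisomerase gene Top2a (0.43, adjusted p = 0.0462). It called 2 lower, the spindle checkpoint kinase gene Bub1 (-0.58, adjusted p = 0.0253) and the centromeric kinesin gene Cenpe (-0.58, adjusted p = 0.0205), of which a second Cenpe probe changed by 0.10. The list has 54 measured genes, and over all genes that fit called 1.8% higher and 1.16% lower. The median of the list was then 0.0025. The mean signal of the list, relative to the control mean, lay between 0.04 and 0.15 in Xpc-/- B[a]P mice and between -0.16 and 0.18 in Xpc-/- control mice, so the mice overlapped, with control 1 and 2 the lowest.

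Of the genes measured by qPCR in the study beside Ect2, none was called. By qPCR the study found smaller rises than on its arrays for Cit, Ect2 and Psip1, and a lower Asf1b after B[a]P. The citron kinase gene Cit, which acts in cytokinesis, ranged between 8.10 and 8.46 in Xpc-/- B[a]P mice and between 7.50 and 8.13 in Xpc-/- control mice, a change of 0.44 (adjusted p = 0.0654). Psip1, a chromatin-bound coactivator, ranged between 12.59 and 12.93 in Xpc-/- B[a]P mice and between 11.97 and 12.54 in Xpc-/- control mice, a change of 0.38 (adjusted p = 0.0902). Asf1b, a histone chaperone, ranged between 10.24 and 10.71 in Xpc-/- B[a]P mice and between 9.88 and 10.58 in Xpc-/- control mice, a change of 0.32 (adjusted p = 0.211). Only the values of Psip1 did not overlap between the groups. The changes without control 1 and 2 were 0.29 for Cit (adjusted p = 0.179), 0.22 for Psip1 (adjusted p = 0.275) and 0.40 for Asf1b (adjusted p = 0.0566).

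Genes of chromatin and protein homeostasis rose as single members. Of 30 chromatin remodelling genes 3 rose (10%, against 0.69% of all genes). They were Smarca2 (0.57, adjusted p = 0.0299) and Smarcb1 (0.41, adjusted p = 0.0492), subunits of the SWI/SNF complex, and Hells, a remodelling ATPase of heterochromatin (0.55, adjusted p = 0.0293). Hells missed the threshold without control 1 and 2 (0.42, adjusted p = 0.0573), whereas Smarca2 and Smarcb1 passed and Arid2 was called lower. The median of the list was -0.0009, and a second Smarca2 probe changed by -0.17. Of 39 heat shock protein genes 3 rose (7.69%, against 0.69% of all genes). These were the chaperonin subunit gene Tcp1 (0.50, adjusted p = 0.016), the co-chaperone gene Bag1 (0.50, adjusted p = 0.016) and the mitochondrial chaperone gene Hspa9 (0.47, adjusted p = 0.0388), which missed the threshold without control 1 and 2. Of 40 proteasome subunit genes 2 rose (5%, against 0.69% of all genes). Psma1 had 11.18, 11.20, 11.14, 11.45 and 10.82 in Xpc-/- B[a]P mice, against 10.53, 10.38, 10.72, 10.51 and 10.49 in Xpc-/- control mice, a rise of 0.63 without overlap (adjusted p = 0.0124). Psmd7 rose by 0.47 (adjusted p = 0.0488).

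Lists of translation and RNA processing had few called members. Of the cytosolic ribosomal protein genes 2.99% were called higher and of the splicing genes 3.77%, against 0.69% of all genes. Of 67 cytosolic ribosomal protein genes Rpl7 (0.53, adjusted p = 0.0157) and Rpl13a (0.58, adjusted p = 0.0391) rose, and the list median was 0.01. Without control 1 and 2 Rpl7 kept its call, Rpl13a did not (0.38, adjusted p = 0.0899), Rpl5 gained one, and the list median was -0.09. The mean signal of the ribosomal list was -0.17 and -0.13 in Xpc-/- control 1 and 2 and between 0.08 and 0.14 in controls 3 to 5, with Xpc-/- B[a]P mice between 0.01 and 0.08. With all arrays 0 of its 67 members fell, and 6 fell (Rpl12, Rpl23a, Rpl37a, Rps9, Rps13 and Rps29) without control 1 and 2. Of all genes 1.16% were called lower without control 1 and 2. Of 53 splicing genes Hnrnpf and Rbm5 (0.48, adjusted p = 0.0243) rose. Of 77 oxidative phosphorylation genes 1.3% rose, against 0.69% of all genes. This was the ATP synthase subunit gene Atp5j2 (0.48, adjusted p = 0.0484). It missed the threshold without control 1 and 2 (0.42, adjusted p = 0.0601). That fit called Cycs and Atp5b of this list higher and Ndufa5 and Ndufs7 lower. The histone chaperone gene Nasp, on the G1-S list and the histone list, rose by 0.47 (adjusted p = 0.0321), with 0.42 (adjusted p = 0.0503) without control 1 and 2.

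Genes of the response to B[a]P itself and to DNA damage did not pass the test. Over all genes 0.69% were called higher and 0.0589% lower, so lists of this size can hold no call at that share. None of 17 genes of the aryl hydrocarbon receptor pathway, 37 of nucleotide excision repair, 13 of translesion synthesis, 26 of double strand break repair and 22 p53 targets was called. Their medians were 0.03, -0.02, 0.10, -0.08 and 0.06 with all arrays, and -0.0047, -0.11, 0.11, 0.01 and -0.04 without control 1 and 2. The median thus turned its sign for the aryl hydrocarbon receptor, double strand break repair and p53 lists. Cyp1a1 had 6.93, 6.61, 6.53, 6.53 and 6.59 in Xpc-/- B[a]P mice, against 6.48, 6.54, 6.22, 6.44 and 6.41 in Xpc-/- control mice. Only B[a]P mouse 1 stood clearly above the controls, the probe lay among the dimmest 25%, and the change was 0.22 (adjusted p = 0.311). Cyp1b1 changed by 0.08 (adjusted p = 0.813) and the receptor gene Ahr by -0.01 (adjusted p = 0.978), or 0.02 without control 1 and 2. Polk, a translesion polymerase that can pass bulky adducts, changed by 0.26 (adjusted p = 0.313), and by 0.13 (adjusted p = 0.613) without control 1 and 2. Among the p53 targets, the cell cycle inhibitor gene Cdkn1a changed by 0.12 (adjusted p = 0.639) and the ubiquitin ligase gene Mdm2 by 0.17 (adjusted p = 0.62). The change of Mdm2 was 0.42 (adjusted p = 0.0548) without control 1 and 2. Without control 1 and 2, the oxidative stress regulator gene Nfe2l2 rose (0.59, adjusted p = 0.0162), and Pold3, Brca2 and Prkdc were called lower.

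Of 23 genes of glutathione conjugation Gsto1 rose (4.35%), and of 31 apoptosis genes Bag1 (3.23%), against 0.69% of all genes. Without control 1 and 2 the glutathione transferase gene Mgst1 and the cytochrome c gene Cycs were called higher as well. With all arrays no member was called among 21 immediate early, 17 circadian clock and 19 cholesterol synthesis genes, and lists of this size can hold no call at the share of all genes. Without control 1 and 2, Rora of the clock list was called lower. The 9 kallikrein 1-related peptidase genes, which code for secreted proteases, had the highest list median with 0.28, and none of them was called. Klk1b11 among them changed by 0.70 (adjusted p = 0.102), and by 1.22 in Wt mice. The mean signal of this list, relative to the control mean, lay between 0.13 and 0.30 in Xpc-/- B[a]P mice and between -0.23 and 0.18 in Xpc-/- control mice, with control 1 and 2 the lowest, and its median was 0.09 without them.

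Few markers of testis cell types were called. With all arrays no member was called among 17 spermatogonial, 27 spermatocyte, 28 elongating spermatid, 13 Leydig, 15 macrophage, 13 endothelial, 5 red blood cell and 8 epididymis genes. The share over all genes was 0.69% higher and 0.0589% lower, so lists of this size can hold no call at that share. Of 26 Sertoli genes the nuclear receptor gene Nr0b1 rose (0.63, adjusted p = 0.0297), and it missed the threshold without control 1 and 2. Of 28 round spermatid genes Adam1b rose. These calls were 3.85% of the Sertoli and 3.57% of the round spermatid genes, against 0.69% of all genes. Without control 1 and 2, Crabp1 (spermatogonia), Oaz3 (elongating spermatids) and C1qc (macrophages) were also called higher and Spaca7 (round spermatids) lower. That fit called 1.8% of all genes higher and 1.16% lower. The peritubular myoid list differed from the others in that the mean signal of its 11 genes did not overlap between the groups. Relative to the control mean it was 0.15, 0.23, 0.17, 0.08 and 0.16 in Xpc-/- B[a]P mice, against -0.01, -0.01, -0.01, 0.02 and 0.0021 in Xpc-/- control mice. It was the 1 list of 31 with such a gap, and 2.29% of all single probes had groups that did not overlap. The median change of the list was 0.06, and its mean includes the 2 called genes described next.

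Of the 11 myoid genes 2 rose (18.2%, against 0.69% of all genes), which code for contractile proteins of smooth muscle. Tagln had 10.51, 10.43, 10.41, 10.17 and 10.54 in Xpc-/- B[a]P mice, against 9.88, 10.09, 9.88, 10.13 and 9.95 in Xpc-/- control mice, a change of 0.42 (adjusted p = 0.0474). Cnn1 had 8.77, 9.19, 9.03, 9.23 and 8.93 in Xpc-/- B[a]P mice, against 8.15, 8.79, 8.50, 8.69 and 8.40 in Xpc-/- control mice, a change of 0.52 (adjusted p = 0.0432). The values of Tagln did not overlap, while those of Cnn1 did. The defining myoid genes Acta2 and Myh11 changed by 0.17 (adjusted p = 0.486) and 0.04 (adjusted p = 0.924). In Wt mice the mean of the list lay between 0.03 and 0.14 after B[a]P and between 0.02 and 0.11 in controls. Tagln was also called in Wt mice (0.43, adjusted p = 0.0405), and Cnn1 was not (0.13, adjusted p = 0.832). The part of the share of myoid cells in the samples in these values was not tested.

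The response of the 135 probes in Xpc-/- mice was set beside that in Wt mice of the same fit, which share no mouse with the Xpc-/- groups. The probes were chosen on the Xpc-/- change, so the sizes in both genotypes are given side by side as a description. In Wt mice 130 of the 135 had the same sign, the exceptions being Xlr5c, Bfar, Ptpn6, Ifi207 and Nr5a2, and the median change was 0.42 for the 122 rises and -0.27 for the 13 falls, against 0.52 and -0.51 in Xpc-/- mice. Of the 135, 51 were also called in Wt mice, which is 37.8% of them and 35.2% of the 145 probes called in Wt mice (0.695% of all probes). Phospho2 (0.64, adjusted p = 0.00551), Hnrnpf (0.69, adjusted p = 0.00551) and Adam1b (0.64, adjusted p = 0.00551) also rose in Wt mice. Pde4a, Asb17 and Oit1 also fell in Wt mice (-0.50, -0.48 and -0.46).

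**Figure D5:**
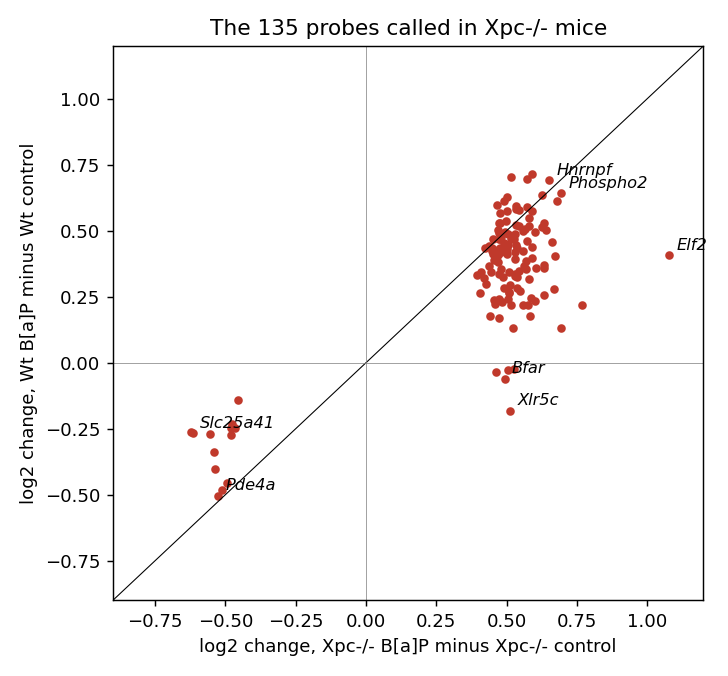
Log2 change in Xpc-/- mice (horizontal axis) and in Wt mice (vertical axis) of the 135 probes called in Xpc-/- mice, with the line of equal change and 7 genes named, which were picked after their values had been seen. Of these probes 130 have the same sign in both genotypes, and Elf2 lies furthest to the right.

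No probe passed the test of a difference in response between the genotypes. The interaction of B[a]P and genotype in limma gave 0 calls (0%, smallest adjusted p = 0.999), with 649 probes (3.11%) at an unadjusted p below 0.05. The ordinary linear model also gave 0. Elf2 changed by 1.08 in Xpc-/- mice and by 0.41 in Wt mice, a difference of 0.67 (standard error 0.22, adjusted p = 0.999). It was not called in Wt mice (adjusted p = 0.669). Its Wt values were 10.65, 10.95, 10.57, 10.73 and 11.21 after B[a]P, against 10.28, 10.45, 10.47, 10.54 and 10.33 in controls. The Wt groups did not overlap either, but the nearest mice were close, at 10.57 and 10.54.

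The 4 called genes with the largest interaction statistics had changes below 0 in Wt mice. Xlr5c, an X-linked lymphocyte-regulated gene, had 7.98, 8.49, 7.93, 8.02 and 8.19 in Xpc-/- B[a]P mice, against 7.63, 7.55, 7.53, 7.43 and 7.90 in Xpc-/- control mice. It rose by 0.51 in Xpc-/- mice (adjusted p = 0.0475) and changed by -0.18 in Wt mice, a difference of 0.70 (adjusted p = 0.999). Bfar, an apoptosis regulator, rose by 0.49 (adjusted p = 0.0299), the phosphatase gene Ptpn6 by 0.46 (adjusted p = 0.0293) and the interferon-activated gene Ifi207 by 0.53 (adjusted p = 0.028). Their changes in Wt mice were -0.06, -0.03 and -0.02, and their adjusted p of the difference was 0.999 each. The difference between the genotypes was thus not detectable for any of them.

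Among the probes called only without Xpc-/- control 1 and 2, some had 1 control far from the rest. Hpx, the haem carrier hemopexin, had 8.28, 7.65, 7.97, 8.17 and 8.05 in Xpc-/- B[a]P mice, against 8.10, 8.41, 7.68, 7.76 and 1.29 in Xpc-/- control mice. Control 5 lay far below every other mouse. The change was 2.45 without control 1 and 2 (adjusted p = 0.0384), and it was 1.38 (adjusted p = 0.378) with all arrays. The mast cell protease gene Cpa3 (1.27) and the antiviral signalling gene Mavs (-1.35) likewise had 1 control far from the rest, with 3.96 in control 3 and 11.75 in control 5. In Med13, a Mediator subunit gene, controls 3 to 5 lay above all the other Xpc-/- mice. Med13 had 7.90, 8.15, 8.42, 8.52 and 8.59 in Xpc-/- B[a]P mice, against 8.16, 7.94, 9.27, 9.18 and 9.04 in Xpc-/- control mice, a change of -0.85 without control 1 and 2 (adjusted p = 0.00581) and -0.40 (adjusted p = 0.362) with them. Nme6, a nucleoside diphosphate kinase gene, changed by -0.78 (adjusted p = 0.00495) without them and by -0.36 with them, and the pseudogene Pisd-ps3 by -0.86 (adjusted p = 0.0104) and -0.47. The amino acid enzyme gene Gpt2 rose by 0.76 (adjusted p = 0.0215) and the small nucleolar RNA Snora34 by 0.82 (adjusted p = 0.0211) without control 1 and 2, and neither passed with all arrays.

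Where a called gene had another probe, that probe was not called. In 14 such pairs the second probe had the same sign in 7 and the opposite sign in 7. Only Ip6k1, an inositol kinase gene, had a second probe of the same sign at an unadjusted p below 0.05 (0.37, against 0.44 for the called probe). Zc3h15, a zinc finger gene, had one of the opposite sign (-0.25, against 0.56) that was also at an unadjusted p below 0.05.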

How the data were processed

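The authors read the 2-colour Agilent 22K Mouse arrays as mean spot signals in Imagene. Before deposit, the scans were quantile normalized on a natural log scale, and the Cy3 reference was used to adjust the Cy5 signal of each spot, with 1 value kept per probe. No background subtraction is stated. The deposited values are natural log signals with a median of 5.23 to 5.24 per array, and they were divided by ln 2. Of 20868 probes, 18303 carried 1 gene symbol and 2565 none. Symbols were updated by Entrez ID to RefSeq names of GRCm38.p6 (18134 matched), and no genome build is named in the files.

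A mean for each of 4 groups was fitted per probe with limma 3.58.1 in R 4.3.3, on all 20 arrays and without filtering. The fit was tested on simulated data. The threshold was an adjusted p below 0.05. Alternatives were the ordinary linear model, other samples, weights, normalizations, filters and a replicate block. A gene's brightest probe stood for it in lists. Named genes were the 12 largest called rises and all 10 named falls, up to 3 called members of each list, 11 genes of interest, the 4 with the largest interaction and the 8 largest changes called only without control 1 and 2. The members, lists and rules were chosen with earlier results of these data known.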

Additional observations from a re-analysis of the deposited data

Results flagged for a closer look

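In each group of 5 Xpc-/- mice, a named gene's highest or lowest value was compared with the others, and 12 of 130 such groups had 1 mouse far from the rest by Dixon's test. Chance alone flags about 1 in 20 groups, but these genes were named by their values, so the number of flags cannot be read against that share. Hpx, Cpa3 and Mavs were named for their large changes without control 1 and 2, to which their outlying controls contribute. Of the 12, 4 were in B[a]P mice and 8 in control mice.

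In Xpc-/- B[a]P mice, Ptchd3 was 11.11 in mouse 5 against 10.54 to 10.65 in the others, and Rpl7 was 13.51 in mouse 4 against 13.29 to 13.35. Adam1b was 12.03 in mouse 2 against 12.27 to 12.36, and Cyp1a1 was 6.93 in mouse 1 against 6.53 to 6.61.

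In Xpc-/- control mice, 3 flags fell on mouse 1, with the lowest values of Ptchd3 (9.57 against 10.04 to 10.23), 4921524J17Rik (8.75 against 9.66 to 9.84) and Atp5j2 (12.2 against 12.46 to 12.51). Mouse 3 had the highest value of Rbm5 (11.59 against 11.44 to 11.47) and the lowest of Cpa3 (3.96 against 7.15 to 7.31). Mouse 5 had the highest values of Ptpn6 (7.90 against 7.57 to 7.67) and Mavs (11.75 against 7.82 to 8.27) and the lowest of Hpx (1.29 against 7.68 to 8.41). Control 2, which stood apart on the first principal component, had none of these flags.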

How the results depend on the processing

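The number of probes called in Xpc-/- mice (135, with 122 higher and 13 lower) was within 1.5 times of this under the ordinary linear model (100), without the dimmest 25% of probes (146), after another quantile normalization (110) and with array medians centred (137). It was 545 (338 higher, 207 lower) without Xpc-/- control 1 and 2, 604 (414 higher, 190 lower) with array weights, 62 (57 higher, 5 lower) with an intensity trend and 0 (0 higher, 0 lower) with the Xpc-/- arrays alone. The fit of Xpc-/- arrays without control 1 and 2, added after seeing the data, gave 77 (48 higher, 29 lower). Leaving out 1 array at a time gave 2 to 321 calls (2 to 265 higher, 0 to 56 lower). The low end came without Xpc-/- control 5 and the high end without Xpc-/- control 3. The cause was not tested.

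With the replicate block 146 probes were called (129 higher, 17 lower), of which 123 were among the 135. Same-numbered Xpc-/- B[a]P and control mice deviated together by correlations of 0.0189 to 0.0856, all below 0.1, so the numbers were not taken as pairs. The interaction gave 0 calls with the block and in all other fits that hold both genotypes, except 1 without Xpc-/- B[a]P 3 (range 0 to 1 over the fits that left out 1 array).

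Of 1947 changes of named genes under these alternatives, 1455 kept their sign and their side of the threshold, 465 lost the call, 20 gained one and 7 turned their sign. All 7 were of Ahr, with 0.021 without control 1 and 2 (also with Xpc-/- arrays alone), 0.036 with array weights, and values above 0 without Xpc-/- control 1 or 5 or B[a]P 1 or 5. With 1 array left out, its change lay between -0.071 and 0.053. Of 279 list counts and medians, 38 moved by more than 1.5 times or more than the spread of the controls.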
